A study of Mus musculus with 5 samples.

Results

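The class 3 semaphorins are secreted guidance ligands, the plexins are the transmembrane receptors that pass their signal into the cell, and the neuropilins are co-receptors that bind the ligand on the cell surface. The 10 genes described here are 6 ligands (Sema3a, Sema3c, Sema3d, Sema3e, Sema3f and Sema3g), the plexins Plxnd1 and Plxna2, and the neuropilins Nrp1 and Nrp2. They were read by 28 probe sets, sets of short 3′ probes, out of 45037 on the array, each assigned by the platform annotation to a single gene. All 10 genes were measured, of 18193 genes named in all. They were chosen by gene family with earlier log2 differences of the same genotype comparison in view, so every difference below is a description and none is evidence for the choice.

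Thoracic aortas of male C57BL/6 mice were profiled on 5 Affymetrix Mouse Genome 430 2.0 arrays. The 3 P467L arrays came from mice carrying human PPARγ with the dominant negative mutation P467L, driven by the smooth muscle myosin heavy chain promoter and so directed to vascular smooth muscle. The 2 non-transgenic arrays came from littermates without the transgene. Pools of 6 to 8 aortas were hybridised, each described as a biological replicate of its own, and no age was stated. The whole vessel was used, so RNA of the endothelium and adventitia was measured together with that of the smooth muscle, and fewer cells of a type cannot be told apart from less RNA per cell. Acta2 and Myh11, defining markers of contractile smooth muscle, measured 14.79 to 14.83 and 13.87 to 13.93 in P467L arrays, against 14.79 to 14.80 and 13.92 to 13.94 in non-transgenic arrays, on a scale that reached 14.99. P467L replicate 1 stood apart, with correlations of 0.985 to 0.991 to the other arrays, which reached 0.995 to 0.997 among themselves, and in it 842 probe sets (1.87%) were lower than in every other array by 1 log2 unit or more, while 0 (0%) were as far above. Non-transgenic replicate 2 had a mean log2 level of 10.8 over 8 stomach markers, against 7.47 in non-transgenic replicate 1 and 7.64 to 8.03 in the P467L arrays.

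Sema3a binds Nrp1 and repels axons and endothelial cells, Sema3f acts mainly through Nrp2, and Sema3e is unusual in the class because it binds Plxnd1 directly and needs no neuropilin. In the developing cardiovascular system Sema3c guides neural crest cells into the outflow tract and Plxnd1 restrains the sprouting of endothelial cells. The neuropilins also bind members of the VEGF family, which places them in angiogenesis as well as in guidance.

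To show the upstream sequence of the genes with the largest differences in this comparison, the 250 bases before the annotated start of Sema3e, Sema3g and Nrp2 are printed 5′ to 3′, as given by RefSeq on GRCm38.p6. They lie on the plus strand at chr5:14025026-14025275, chr14:31217623-31217872 and chr1:62703067-62703316. Capitals mark the GC box GGGCGG, on either strand.
Sema3e: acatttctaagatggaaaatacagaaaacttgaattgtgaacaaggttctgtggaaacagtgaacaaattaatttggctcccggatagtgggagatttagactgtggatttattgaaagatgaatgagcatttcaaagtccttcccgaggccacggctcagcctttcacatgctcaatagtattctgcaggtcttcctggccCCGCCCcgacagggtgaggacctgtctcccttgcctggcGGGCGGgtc
Sema3g: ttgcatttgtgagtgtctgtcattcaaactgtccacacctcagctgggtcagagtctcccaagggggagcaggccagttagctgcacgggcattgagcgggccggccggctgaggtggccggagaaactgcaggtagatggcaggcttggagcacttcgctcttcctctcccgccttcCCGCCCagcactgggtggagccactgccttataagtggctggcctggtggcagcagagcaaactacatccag
Nrp2: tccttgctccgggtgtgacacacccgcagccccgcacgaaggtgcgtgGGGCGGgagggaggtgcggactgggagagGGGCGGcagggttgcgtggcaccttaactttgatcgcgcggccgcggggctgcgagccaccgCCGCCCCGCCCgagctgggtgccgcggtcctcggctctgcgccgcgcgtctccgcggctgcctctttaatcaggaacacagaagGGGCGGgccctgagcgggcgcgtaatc
RefSeq windows were matched for 9 of the 10 genes. The GC box was found in 7 of these 9 windows, and 32.7% of all 32851 promoter windows of the same length hold it. Sema3e has 2 matches, Sema3g has 1, and Nrp2 has 5, of which a pair overlaps by a base. The direct repeat of AGGTCA with a spacer of 1 base, the consensus element of PPAR and RXR heterodimers, was searched on both strands and was in 0 of the 9 windows and in 0.0335% of all windows. A single AGGTCA, which is contained in that repeat, was in the windows of Plxnd1 and Nrp1, and 14% of all windows hold it. The E-box CACGTG and the TATA box TATAAA were in 0 of the 9, against 6.02% and 12.4% of all windows. Such matches describe the letters of these windows and show nothing of the binding of a factor.

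Among the ligands, Sema3e, Sema3c and Sema3f measured lower and Sema3g higher in P467L aortas in every array, and the groups overlapped for Sema3d, where the sign of the brighter probe set depended on P467L replicate 1, and for Sema3a. Among the receptors, Plxnd1 and a probe set of Nrp2 measured higher, and the groups overlapped for Plxna2 and Nrp1. The largest difference of the 28 was that of Sema3e, -1.32 log2 units (SE 0.07), in a probe set whose mean was 4.45 ± 0.10 in the P467L arrays (SD, n = 3) and 5.78 ± 0.02 in the non-transgenic arrays (SD, n = 2). The limma fit over all 45037 probe sets called 0 of the 28 at an adjusted p of 0.05, and 0 of all (0%). At an unadjusted p of 0.05 in the same fit, 10 of the 28 lay past the threshold, 3 higher and 7 lower, against 7.44% of all probe sets, 4.71% higher and 2.74% lower. Both groups were apart, with no overlap of their values, in 12 of the 28, 3 higher and 9 lower, against 18.9% of all probe sets, of which 11.2% were higher in this way and 7.61% lower. Nothing is read from these shares, since the comparison itself was in view when the genes were chosen.

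**Figure D1:**
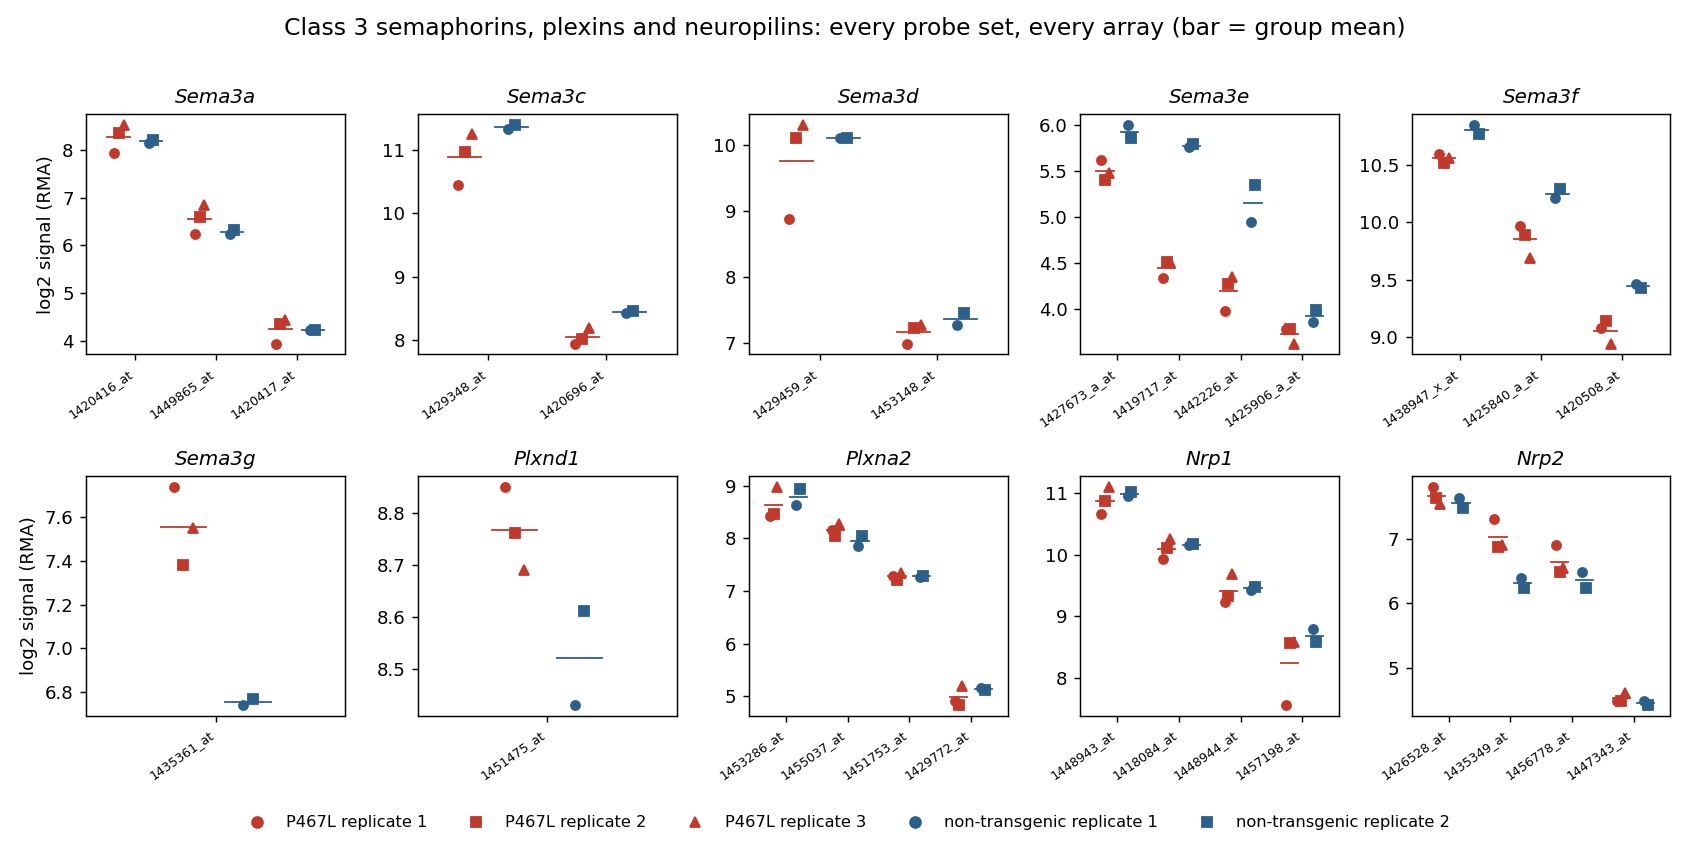
Log2 signal (y axis) of each of the 28 probe sets (x axis) in each array, with red symbols for the P467L arrays, blue symbols for the non-transgenic arrays and a bar for each group mean. The red and blue symbols separate completely in all probe sets of Sema3c, Sema3e, Sema3f, Sema3g and Plxnd1, and P467L replicate 1 (red circle) lies far below the rest in Sema3d 1429459_at and Nrp1 1457198_at.

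Sema3e, the direct ligand of plexin D1, was read by 4 probe sets and all 4 were lower. Probe set 1419717_at measured 4.34, 4.51 and 4.51 in P467L arrays, against 5.76 and 5.79 in non-transgenic arrays. The spread within each group was small beside the gap between them, and the ratio of P467L over non-transgenic was 0.400 on the linear scale. Its limma adjusted p over all probe sets was 0.0953. No probe set of the 45037 reached a lower value, but others with a smaller unadjusted p shared it. In all, 17 probe sets lay under an adjusted p of 0.10. Probe set 1442226_at measured 3.98, 4.28 and 4.35 in P467L arrays, against 4.95 and 5.35 in non-transgenic arrays, a difference of -0.95 (SE 0.18). Probe set 1427673_a_at measured 5.62, 5.40 and 5.48 in P467L arrays, against 6.00 and 5.86 in non-transgenic arrays, a difference of -0.43 (SE 0.09). Here P467L replicate 1 was the highest of its group, unlike in the probe sets before it. The dimmest probe set, 1425906_a_at, measured 3.79, 3.79 and 3.63 in P467L arrays, against 3.86 and 3.99 in non-transgenic arrays, with a difference of -0.19 (SE 0.08). In all 4 probe sets both groups lay below 6.23, the median of all values, and no detection call was available, so the signal was not tested against background and the true ratio could be further from 1. Without P467L replicate 1 the 4 differences ran from -1.26 to -0.22.

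Sema3c, the outflow tract ligand, was lower in both its probe sets. Probe set 1429348_at measured 10.44, 10.97 and 11.25 in P467L arrays, against 11.33 and 11.39 in non-transgenic arrays. The P467L arrays were widely spread, replicate 3 came within 0.1 log2 units of the lower non-transgenic array, and the difference was -0.47 (SE 0.26), or -0.25 without P467L replicate 1. Probe set 1420696_at measured 7.95, 8.02 and 8.19 in P467L arrays, against 8.43 and 8.47 in non-transgenic arrays. Its groups were tighter, the difference was -0.40 (SE 0.08), and it was -0.34 without P467L replicate 1.

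Sema3f, the ligand that acts mainly through neuropilin-2, was lower in all 3 of its probe sets. Probe set 1438947_x_at measured 10.60, 10.52 and 10.56 in P467L arrays, against 10.85 and 10.77 in non-transgenic arrays, a difference of -0.25 (SE 0.05). Probe set 1425840_a_at measured 9.97, 9.89 and 9.69 in P467L arrays, against 10.21 and 10.29 in non-transgenic arrays, a difference of -0.40 (SE 0.10). Probe set 1420508_at measured 9.08, 9.14 and 8.94 in P467L arrays, against 9.46 and 9.43 in non-transgenic arrays, a difference of -0.39 (SE 0.07). All 3 were bright, P467L replicate 1 lay inside or at the upper end of its group, and without it the differences ran from -0.46 to -0.27.

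Sema3g, a ligand made largely by endothelial cells, was the one class 3 ligand whose P467L arrays all exceeded both non-transgenic arrays. Its single probe set, 1435361_at, measured 7.74, 7.38 and 7.55 in P467L arrays, against 6.74 and 6.77 in non-transgenic arrays. The difference was 0.80 (SE 0.12), a ratio of 1.74, and it was 0.71 without P467L replicate 1. The limma adjusted p was 0.313. Over the 5 arrays the profile nearest to that of Sema3g, after each probe set was centred on its non-transgenic mean, was that of Art4, at a root mean square distance of 0.0388 log2 units. Capn13, Cldn3, Rasa4 and Cldn5 followed at 0.0674, 0.0695, 0.0766 and 0.0797, with differences of 0.87, 0.79, 0.74 and 0.73. Cldn5 is an endothelial tight junction protein and is itself among the 10 endothelial markers given below. Of these markers, 7 were higher and 3 lower, from -1.05 for Emcn to 0.73 for Cldn5. The part of the endothelium in the difference of Sema3g was not tested. The nearness describes these 5 arrays only.

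Sema3d and Sema3a, 2 further ligands, did not separate the groups. Sema3d probe set 1429459_at measured 8.87, 10.10 and 10.30 in P467L arrays, against 10.10 in both non-transgenic arrays. Only P467L replicate 1 was low, by 1.23 log2 units below the next array, so the difference of -0.34 (SE 0.49) became 0.10 without it. Probe set 1453148_at measured 6.99, 7.23 and 7.27 in P467L arrays, against 7.27 and 7.45 in non-transgenic arrays, a difference of -0.20 (SE 0.11), or -0.11 without P467L replicate 1. Sema3a probe set 1420416_at measured 7.94, 8.35 and 8.52 in P467L arrays, against 8.15 and 8.21 in non-transgenic arrays. P467L replicate 1 lay below both non-transgenic arrays and P467L replicates 2 and 3 lay above them, and the difference was 0.09 (SE 0.19), or 0.26 without replicate 1. Probe set 1449865_at measured 6.23, 6.60 and 6.84 in P467L arrays, against 6.23 and 6.32 in non-transgenic arrays, a difference of 0.28 (SE 0.20). The dim probe set 1420417_at measured 3.94, 4.35 and 4.43 in P467L arrays, against 4.22 in both non-transgenic arrays, a difference of 0.02 (SE 0.17). In all 3 Sema3a probe sets the order of the P467L arrays was the same, with replicate 1 lowest, and without it the differences were 0.26, 0.44 and 0.17.

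Plxnd1, the receptor of Sema3e and of Sema3c with a neuropilin, was higher in P467L aortas while Sema3e was lower. Its single probe set, 1451475_at, measured 8.85, 8.76 and 8.69 in P467L arrays, against 8.43 and 8.61 in non-transgenic arrays. The groups did not overlap, but the highest non-transgenic array lay within 0.1 log2 units of the lowest P467L array, and the difference was 0.25 (SE 0.08), a ratio of 1.19. It ran from 0.16 without non-transgenic replicate 1 to 0.34 without non-transgenic replicate 2.

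Plxna2, a plexin of the A class that pairs with neuropilins, gave differences of both signs in its 4 probe sets. Probe set 1455037_at measured 8.16, 8.04 and 8.28 in P467L arrays, against 7.86 and 8.04 in non-transgenic arrays, a difference of 0.21 (SE 0.10). P467L replicate 2 and non-transgenic replicate 2 had the same value, so the groups touched. Probe set 1453286_at measured 8.43, 8.46 and 8.98 in P467L arrays, against 8.63 and 8.94 in non-transgenic arrays, a difference of -0.16 (SE 0.22) with wide overlap. Probe set 1451753_at measured 7.29, 7.20 and 7.34 in P467L arrays, against 7.26 and 7.29 in non-transgenic arrays. The dim probe set 1429772_at measured 4.91, 4.83 and 5.20 in P467L arrays, against 5.16 and 5.11 in non-transgenic arrays, so the 4 differences, which ran from -0.16 to 0.21, gave Plxna2 no common direction.

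Nrp1, the co-receptor of Sema3a and of VEGF, overlapped between the groups in all 4 of its probe sets. Probe set 1448943_at measured 10.66, 10.88 and 11.11 in P467L arrays, against 10.96 and 11.02 in non-transgenic arrays, a difference of -0.11 (SE 0.15). Probe set 1418084_at measured 9.93, 10.12 and 10.26 in P467L arrays, against 10.16 and 10.18 in non-transgenic arrays, a difference of -0.07 (SE 0.11). Probe set 1448944_at measured 9.23, 9.34 and 9.69 in P467L arrays, against 9.43 and 9.48 in non-transgenic arrays, a difference of -0.04 (SE 0.15). The P467L arrays lay on both sides of the non-transgenic arrays in these 3 probe sets, with replicate 1 lowest and replicate 3 highest. Probe set 1457198_at measured 7.56, 8.57 and 8.59 in P467L arrays, against 8.80 and 8.58 in non-transgenic arrays. Replicate 1 again lay 1.01 log2 units below all others there, and the difference of -0.45 (SE 0.38) became -0.11 without it. The 95% interval of the brightest Nrp1 probe set ran from -0.50 to 0.29.

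Nrp2, the co-receptor of Sema3f, separated the groups in 1 of its 4 probe sets, and the means of the other 3 were higher in P467L aortas while the groups overlapped. Probe set 1435349_at measured 7.31, 6.88 and 6.91 in P467L arrays, against 6.40 and 6.23 in non-transgenic arrays, a difference of 0.72 (SE 0.16), or a ratio of 1.65. P467L replicate 1 was the highest array, and without it the difference was 0.58. Probe set 1456778_at measured 6.90, 6.48 and 6.55 in P467L arrays, against 6.48 and 6.23 in non-transgenic arrays, a difference of 0.29 (SE 0.16), or 0.16 without P467L replicate 1. The brightest probe set, 1426528_at, measured 7.81, 7.64 and 7.54 in P467L arrays, against 7.64 and 7.48 in non-transgenic arrays, and differed by 0.10 (SE 0.10), or by 0.03 without P467L replicate 1 and 0.02 if non-transgenic replicate 2 is left out. The dim probe set 1447343_at measured 4.49, 4.49 and 4.61 in P467L arrays, against 4.49 and 4.42 in non-transgenic arrays. With all 5 arrays the differences of the Nrp2 probe sets ran from 0.08 to 0.72, and that of the brightest was -0.05 if both P467L replicate 1 and non-transgenic replicate 2 are left out.

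**Figure D2:**
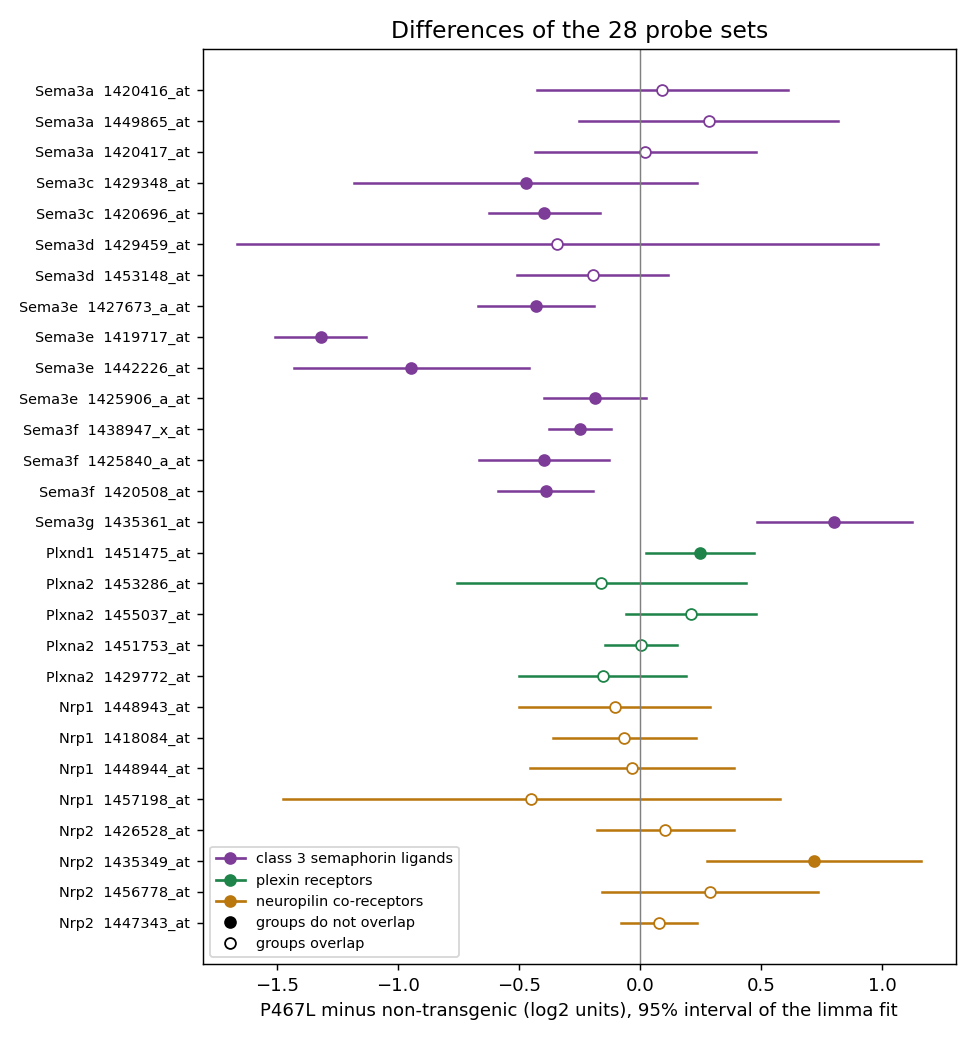
Difference between the group means of each of the 28 probe sets, P467L minus non-transgenic in log2 units (x axis), with the 95% interval of the limma fit as a line; colours give the role of the gene and filled points mark groups that do not overlap. Filled points lie left of 0 for Sema3c, Sema3e and Sema3f and right of 0 for Sema3g, Plxnd1 and 1 probe set of Nrp2.

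With the brightest probe set of each gene, 4 of the 10 genes were higher and 6 lower, and the median difference was -0.13, beside 0.02 over all 18193 genes. The groups did not overlap in 2 genes that were higher and 3 that were lower, against 22.7% of all genes, 16.1% higher and 6.55% lower. The median of the 10 genes relative to the non-transgenic mean was -0.28 in P467L replicate 1, -0.06 in replicate 2 and 0.15 in replicate 3, against -0.02 and 0.02 in the non-transgenic arrays. The median thus followed P467L replicate 1, without which it was 0.02. By role, the 6 ligands had a median of -0.30, the plexins 0.04 and the neuropilins 0.00. Without P467L replicate 1 the medians were -0.08 for the ligands, 0.07 for the plexins and 0.02 for the neuropilins. Without non-transgenic replicate 2 they were -0.32 for the ligands, 0.17 for the plexins and -0.03 for the neuropilins. P467L replicate 1 was the lowest of the 5 arrays in 13 of the 28 probe sets and the highest in 5. Nothing is read from these counts, since the same shares over all probe sets are not given.

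**Figure D3:**
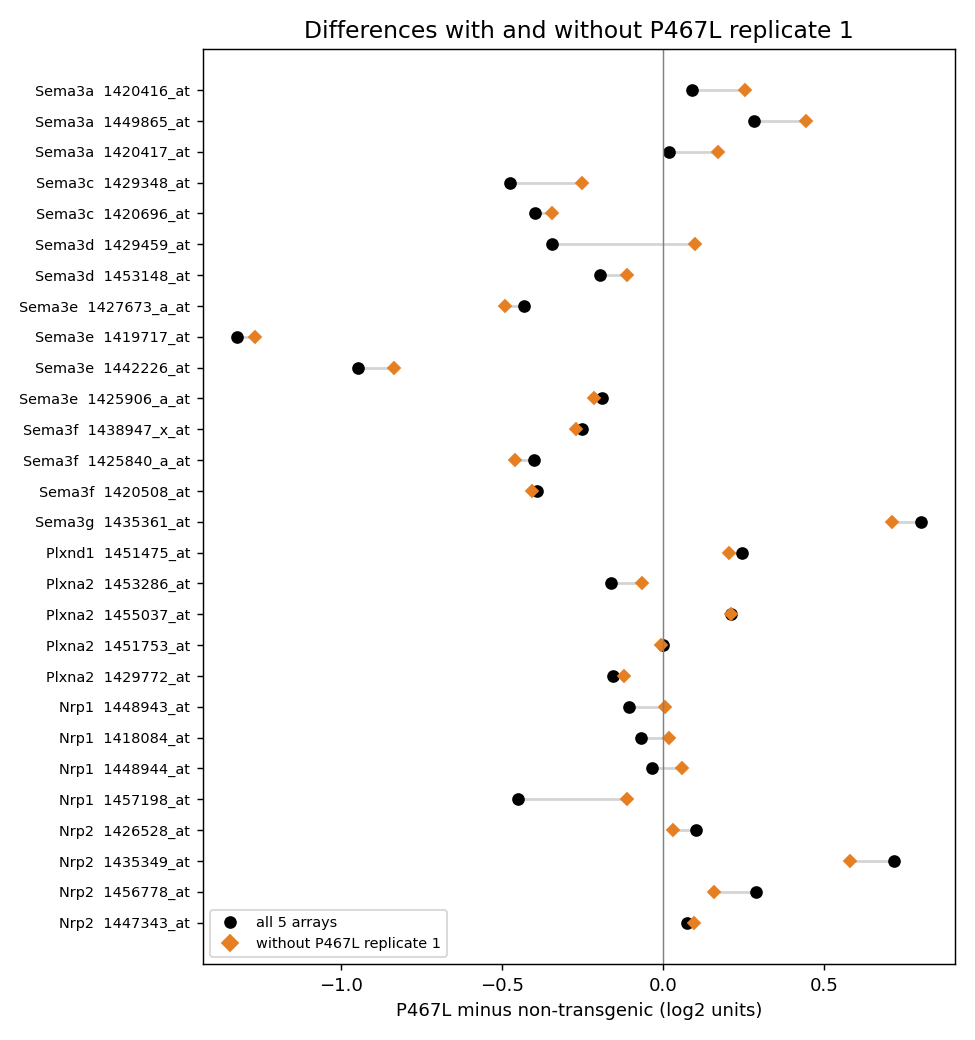
Difference of each probe set, P467L minus non-transgenic in log2 units (x axis), with all 5 arrays (black circles) and without P467L replicate 1 (orange diamonds). The Sema3e, Sema3f, Sema3g and Plxnd1 points move little, while the brighter Sema3d probe set crosses 0, at -0.34 with that array and 0.10 without it, and Nrp1 1457198_at moves to -0.11.

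Sema3d, Sema3a, Sema3e and Sema3c are neighbours on mouse chromosome 5, in this order in RefSeq, with 18 other protein-coding genes annotated within the run. Of these 18, 5 were measured and the groups overlapped in each of the 5. The calcium channel subunit Cacna2d1 measured 10.46, 11.04 and 11.32 in P467L arrays, against 10.72 and 10.75 in non-transgenic arrays, a difference of 0.205. Its overlap came from P467L replicate 1 alone, which lay below both non-transgenic arrays, while P467L replicates 2 and 3 lay above them. The growth factor Hgf, which lies between Sema3e and Sema3c, differed by -0.06 and the presynaptic scaffold gene Pclo by 0.07. Both were dim, with Hgf at 4.57 to 4.65 and Pclo at 4.89 to 5.13 in P467L arrays. Non-transgenic arrays gave 4.65 and 4.72 for Hgf and 4.91 in both for Pclo, all below 6.23, the median of all values. The groups thus overlapped in the few measured genes between Sema3e and Sema3c, and a regional effect was not tested.

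The remaining genes of semaphorin signalling were taken from lists of other semaphorins, other plexins, receptor partners, VEGF family ligands and cytoplasmic effectors. Of 68 genes, 66 were measured, 0 were called by limma over all probe sets, and 8 lay past an unadjusted p of 0.05, 5 higher and 3 lower, against 9.45% of all genes read by their brightest probe set. The groups did not overlap in 20 genes that were higher and 6 that were lower, against 16.1% and 6.55% of all genes, and the median difference was 0.03. Sema5a, a transmembrane semaphorin with thrombospondin repeats, had the largest difference of these lists: it measured 8.74, 9.21 and 9.42 in P467L arrays, against 9.97 and 10.43 in non-transgenic arrays. All P467L arrays were lower, by -1.08 (SE 0.26) on average, or -0.89 if P467L replicate 1 is left out and -0.85 if non-transgenic replicate 2 is. Sema3b, the class 3 ligand outside the 10 genes, measured 8.93, 8.87 and 8.58 in P467L arrays, against 9.08 and 9.01 in non-transgenic arrays, a difference of -0.25 (SE 0.12). Sema4g, a transmembrane semaphorin, measured 6.97, 7.02 and 6.68 in P467L arrays, against 6.38 and 6.29 in non-transgenic arrays, a difference of 0.56 (SE 0.12). The 14 other semaphorins thus included members apart in each direction, 3 higher and 2 lower, with a median of 0.01.

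Plexins outside the 10 genes differed little: of 7 measured, the groups were apart in 1, Plxnb2, at 0.17 (SE 0.07), and the differences of the other 6 ran from -0.15 for Plxna4 to 0.14 for Plxna1. Among the receptor partners, the groups overlapped for the VEGF receptors Kdr and Flt1 and were apart in L1cam, an adhesion molecule that associates with Nrp1, at 0.24 (SE 0.10), and in Gipc1, an adaptor of neuropilin, at 0.16 (SE 0.10). Without P467L replicate 1 Gipc1 was at 0.07. Kdr differed by -0.08 (SE 0.11) and Flt1 by 0.11 (SE 0.08), or by -0.25 and 0.00 if non-transgenic replicate 2 is left out. Of the VEGF family, Pgf, placental growth factor, measured 7.87, 7.81 and 7.99 in P467L arrays, against 7.14 and 7.45 in non-transgenic arrays, a difference of 0.60 (SE 0.12). Vegfd, a ligand of the lymphatic receptor Flt4, measured 10.67, 10.57 and 10.29 in P467L arrays, against 10.80 and 11.07 in non-transgenic arrays, a difference of -0.42 (SE 0.15). Pgf was thus higher and Vegfd lower in all P467L arrays, while Vegfa differed by -0.15 (SE 0.09) and its groups overlapped. If non-transgenic replicate 2 is left out, the differences were 0.75 for Pgf, -0.29 for Vegfd and -0.24 for Vegfa. Among 28 measured effectors 12 were apart and higher and 3 apart and lower, against 16.1% and 6.55% of all genes. Rnd2, a small GTPase that binds plexins, measured 10.61, 10.36 and 10.26 in P467L arrays, against 9.97 and 9.88 in non-transgenic arrays, a difference of 0.48 (SE 0.12). Rac1, a GTPase of the actin cytoskeleton that binds plexins, differed by 0.00 (SE 0.03).

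**Figure D4:**
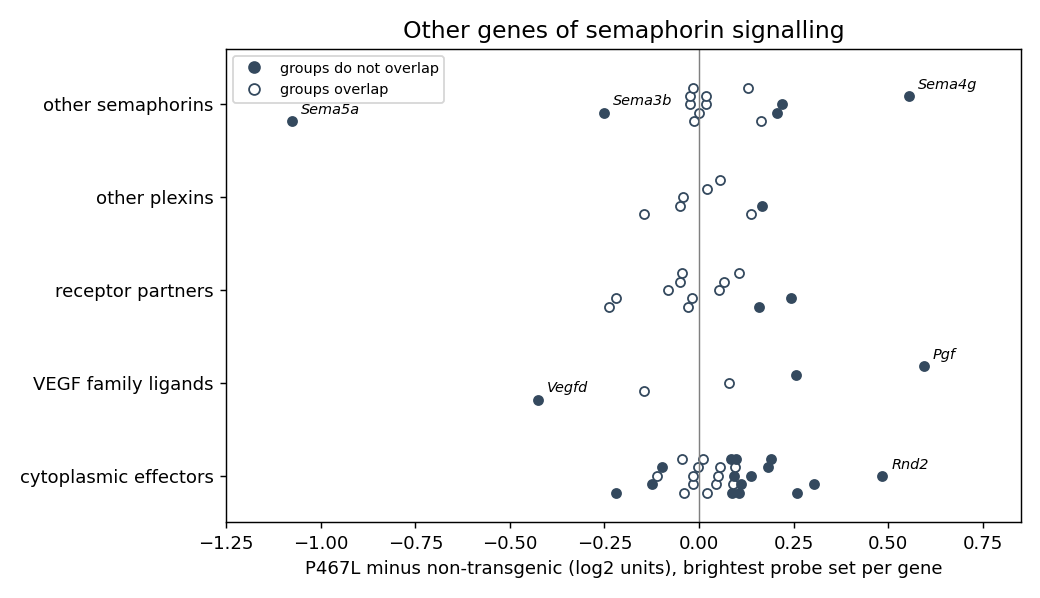
Difference of each measured gene of the 5 lists, P467L minus non-transgenic in log2 units (x axis), by list (y axis, with a small offset to separate points); filled points mark groups that do not overlap and the 6 genes of the naming rule are labelled. Sema5a stands farthest to the left at -1.08, and Pgf, Sema4g and Rnd2 farthest to the right.

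Markers of cell types that the aortas could hold are given beside these values; over all genes read by their brightest probe set the groups were apart in 16.1% that were higher and 6.55% that were lower. Of 8 smooth muscle markers 2 were apart and higher and 1 apart and lower, at mean levels of 12.84 to 12.86 in P467L arrays, against 12.76 to 12.77 in non-transgenic arrays. Those 3 were the intermediate filament gene Des at 0.81 (SE 0.13), Smtn at 0.16 (SE 0.04) and the transcriptional coactivator Myocd at -0.36 (SE 0.15). Of 10 endothelial markers, the groups were apart in 4 that were higher and 2 that were lower, and the mean log2 level ran from 9.23 to 9.38 in P467L arrays, against 9.26 to 9.29 in non-transgenic arrays. The endothelial markers spread from -1.05 (SE 0.12) for the sialomucin Emcn to 0.73 (SE 0.12) for Cldn5, with Tie1 at 0.25 (SE 0.08), Cdh5 at 0.04 (SE 0.11) and Pecam1 at -0.09 (SE 0.05). All 8 macrophage markers were higher, 3 with the groups apart. Their mean levels were 9.20 to 9.54 in P467L arrays, with P467L replicate 1 at the top, against 9.17 in both non-transgenic arrays. Of 8 fibroblast and adventitial markers 7 were higher and 4 apart, at mean levels of 11.9 to 12.0 in P467L arrays, against 11.8 in both non-transgenic arrays. The groups were apart in 0 of 6 lymphatic endothelial markers, 0 of 7 measured Schwann cell and nerve markers, 0 of 8 mesothelial markers and 0 of 6 measured adipocyte markers. Prox1, a defining lymphatic marker, measured 3.62 to 3.76 in P467L arrays, against 3.76 to 3.91 in non-transgenic arrays, near the low end of the scale at 3.03. Mean levels ran from 6.81 to 6.93 in P467L arrays, against 6.88 to 6.92 in non-transgenic arrays, for the lymphatic list, and from 6.10 to 6.15 in P467L arrays, against 6.14 to 6.19 in non-transgenic arrays, for the Schwann cell and nerve list. The mesothelial list, which holds the epithelial keratins Krt8, Krt18 and Krt19, spanned 6.47 to 6.58 in P467L arrays, against 6.40 to 7.09 in non-transgenic arrays. Of 10 cardiac and skeletal muscle markers 2 were higher with the groups apart, at mean levels of 6.61 to 6.84 in P467L arrays, against 6.25 to 6.62 in non-transgenic arrays. The adipocyte list spanned 8.11 to 8.79 in P467L arrays, against 8.07 to 9.01 in non-transgenic arrays. The part of these cell types in the differences of the semaphorins and their receptors was not tested.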

How the data were processed

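The authors deposited log2 values; Affymetrix Power Tools and RMA are named as their software, per the submitters' processing notes, without versions, and neither scan dates nor batches were found in the labels. RMA brings the arrays to a like distribution, so a shift common to most transcripts is largely lost. The deposited values still had medians of 6.17, 6.23 and 6.23 in P467L arrays, against 6.25 in both non-transgenic arrays. Precision is limited by the number of arrays. Of 45037 probe sets, after 64 controls were left out, 34945 had 1 gene in the platform annotation, 932 had more than 1 and stayed unnamed, and 9160 had none; symbols were updated through NCBI gene numbers to RefSeq (GRCm38.p6), which served for names, gene order and promoter sequence. Groups came from the titles. P467L was compared with non-transgenic by limma 3.58.1 in R 4.3.3 (lmFit, eBayes, two-sided, no covariate, 1.23 prior degrees of freedom), adjusted by Benjamini-Hochberg across the 45037 at 0.05; the SE is that of the moderated fit. Levels of different probe sets are not comparable. Gene lists used the brightest probe set per gene, and 155 of 162 entries were measured. The members, lists and tests were chosen with earlier results of these data known. Named were all 10 members, and of the pathway lists the 3 largest differences per direction among genes whose groups did not overlap and whose brighter group reached the median level. Plxnb2, L1cam, Gipc1, Kdr, Flt1, Vegfa, Rac1, Plxna1, Plxna4, the chromosome 5 neighbours and single markers were named after their values were seen. Data for 45037 probe sets were simulated from the real means and residual SDs, with known changes planted. There limma recovered 58.2% of 67 changes of 1 log2 unit, 83.6% of 67 changes of 2 and 93.9% of 66 changes of 4. These shares hold for that setting and are not the power in the real arrays. The replicate numbers were not taken to pair the arrays, since the labels name no shared batch. Over all probe sets the deviations of same-numbered arrays from their group means correlated at 0.11 for number 1 and 0.01 for number 2. P467L replicate 3 and non-transgenic replicate 2 correlated at 0.15. The deviations of the 2 non-transgenic arrays mirror each other, so such correlations cannot decide whether the arrays were paired. The alternatives were a replicate block, median centring, a second quantile normalization, a robust variance trend, array weights, a filter on dim probe sets, 1 probe set per gene, a threshold of 0.10 and leaving out arrays; the differences of pathway and marker genes without single arrays were added after seeing the data.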

Additional observations from a re-analysis of the deposited data

How the results depend on the processing

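Of the 28 probe sets, 19 kept the sign of their difference under all 13 alternative fits in which they were tested, among them every probe set of Sema3c, Sema3e, Sema3f, Sema3g and Plxnd1. The other 9, in Sema3a, Sema3d, Plxna2, Nrp1 and Nrp2, turned in at least 1 fit. Over all alternatives 10 of 339 values moved by more than the spread between replicates. Both counts include fits that could not change a difference: the robust variance trend, the filter on dim probe sets and 1 probe set per gene. The replicate block gave the same differences as leaving out P467L replicate 3, so these are not separate checks. Limma called 15 probe sets with each array centred on its median, 1 of them a member, Sema3e 1419717_at (adjusted p = 0.0427); such centring moves all differences by 0.04. At an unadjusted p of 0.05 it gave 2306 higher and 683 lower probe sets (77.1% higher), against 2119 and 1234 (63.2% higher) without it. Array weights called 2245, including 9 members in Sema3c, Sema3e, Sema3f, Sema3g and Nrp2. With 1 probe set per gene, 10 genes and no member were called. In that setting Sema3e was read by its brightest probe set, 1427673_a_at, and 1419717_at was not tested. A threshold of 0.10 called 17 with Sema3e 1419717_at as the 1 member. The estimate of the array weights stopped before it converged, and the cause of its larger count was not tested. Leaving out each array called 0 probe sets and 0 members each time. The replicate block, in which P467L replicate 3 has no partner and adds nothing, also called 0 probe sets and 0 members, with a median difference of -0.24 over the 10 genes. The median ran from -0.24 to 0.02 when 1 array was left out, and was 0.0625 without both P467L replicate 1 and non-transgenic replicate 2. Those fits use fewer arrays than the main fit. Groups that do not overlap numbered 14 to 19 of 28 (50% to 67.9%) when 1 array was left out, where the share over all probe sets was 23.2% to 39.7%, against 18.9% with all 5 arrays; they numbered 5 of 10 with 1 probe set per gene, against 22.7% of all genes.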
